A study of Mus musculus with 18 samples.

Results

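The comparison described here set mammary glands of RonTK-/- mice at 6 weeks of age against mammary glands of RonTK-/- mice at 5 weeks. It takes 6 of the 18 arrays of the series, 3 for each age, chosen by their labels. Both groups lack the tyrosine kinase domain of the receptor Ron, both come from virgin females that received no treatment, and they differ in the labels only by age. Total RNA of whole glands was amplified for 1 round, labelled with biotin and hybridised to Affymetrix Mouse 430 2.0 arrays. The labels state neither whether the arrays of a group came from separate animals nor which pair of glands was taken, so p-values measure the spread between arrays, which may be technical. RonTK+/+ glands of the same ages, also 3 arrays each, gave the same difference between ages without the mutation.

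Mst1r encodes Ron, a cell surface kinase of the Met family, and its ligand is macrophage-stimulating protein, the product of Mst1. It is found on epithelial cells and on resident macrophages. In puberty the ducts of the mouse mammary gland elongate through a fat pad under the control of ovarian steroids, growth hormone and local growth factors. A whole gland also holds fat cells, vessels, immune cells and, in the inguinal pair, a lymph node. The gland lies against skin and body wall muscle. In such bulk RNA, fewer cells of a type and less RNA per cell cannot be told apart.

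Values are log2 ratios, with 0 at the RonTK+/+ median for most probe sets. They are written below in array order, arrays 1, 2 and 3 of each age. A ratio carries no level, so a marker can be seen to differ between arrays but not to be present or absent, and whether the tissue holds its defining markers could not be checked. Of 18193 genes tested with limma, 0 differed between 6 and 5 weeks at an adjusted p under 0.05, which is 0% of genes. The lowest adjusted p was 0.263. At an unadjusted p under 0.05 there were 1594 genes, 778 higher at 6 weeks (4.28% of genes) and 816 lower (4.49%). The 3 arrays of 6 weeks all lay above the 3 of 5 weeks for 2039 genes (11.2%) and all below for 1640 genes (9.01%). A difference of at least 2-fold between the means was seen for 171 genes in the higher direction (0.94%) and 253 in the lower (1.39%). The median difference over all genes was 0.00, and 51.0% of genes lay above 0.

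The 5-week arrays did not form one group. Array 3 of 5 weeks differed from the 6-week arrays by a root mean square of 0.215 to 0.287 log2 units over all genes, with 90 to 184 genes at least 2-fold apart. Arrays 1 and 2 of 5 weeks differed from the 6-week arrays by 0.486 to 0.672, with 525 to 1154 such genes, and from array 3 of their own age by 0.518 and 0.668. The 6-week arrays differed from each other by 0.218 to 0.308. Of the 424 genes with a 2-fold difference between the ages, 389 lay within 2-fold when the 6-week mean was set against array 3 alone. Many list medians are therefore also given against array 3, and some against arrays 1 and 2. With array 3 as the lone 5-week array, and its spread taken from the other groups, limma called 0 genes, with 459 at an unadjusted p under 0.05. Without array 3 it also called 0, with 3445. Only fits with array weights called genes: 7611 with the default method, which did not converge and gave 5-week array 1 a weight of 50.8, and 3166 with a gene-by-gene method that gave array 1 a weight of 4.22 and array 3 one of 0.472.

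**Figure D1:**
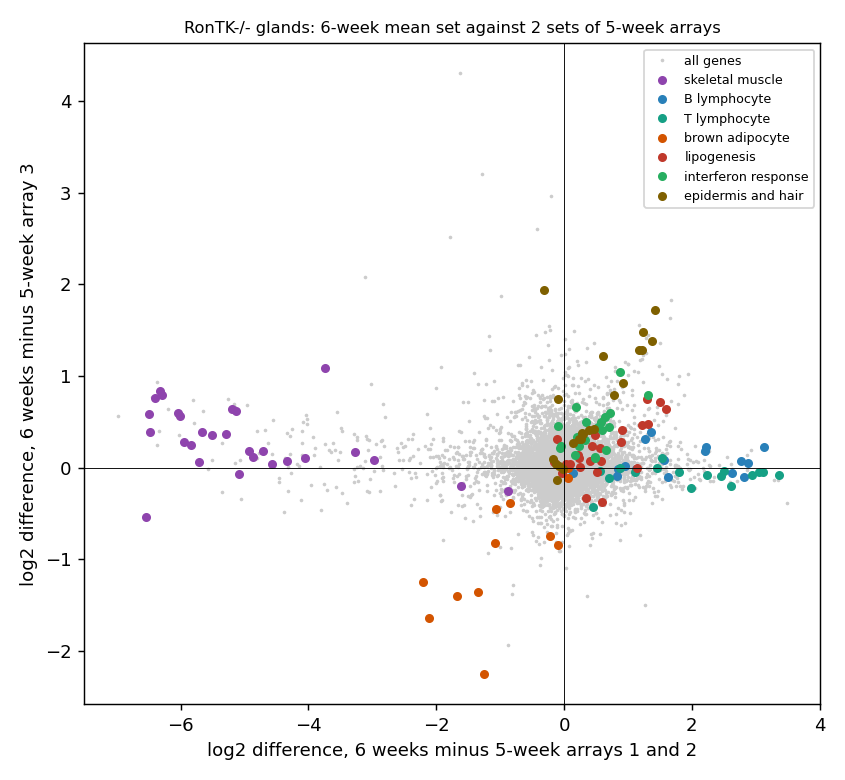
Each grey point is 1 of the 18193 genes, placed by the log2 difference of the 6-week mean from 5-week arrays 1 and 2 (x axis) and from 5-week array 3 (y axis), in RonTK-/- glands; coloured points are the genes of 7 lists. Skeletal muscle genes lie far to the left and lymphocyte genes to the right, both near 0 on the y axis, while brown adipocyte genes lie below 0 on the y axis.

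Mst1r itself was measured by 1 probe set. Its log2 ratios were 0.65, 0.49 and 0.40 at 6 weeks, against -0.20, -0.43 and 0.22 at 5 weeks. All 6-week arrays lay above all 5-week arrays, by 0.65 ± 0.23 on the log2 scale (SE), a 1.57-fold difference that did not pass the test (unadjusted p = 0.0127, adjusted p = 0.528, limma). Against array 3 alone the difference was 0.30. Since the sources do not say where the probe set lies relative to the deleted kinase domain, these values do not check the genotype.

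Mst1, the ligand gene, differed little, with -0.16, -0.07 and -0.16 at 6 weeks against -0.11, -0.14 and -0.07 at 5 weeks (adjusted p = 0.917, limma). Of the 14 measured genes of the Ron and Met ligand and receptor system, 10 lay above 0 and 4 below, with a median of 0.08, 0.10 against array 3 and 0.02 against arrays 1 and 2. Spint2, an inhibitor of the serine proteases that activate such ligands, had 0.07, 0.03 and 0.10 at 6 weeks against -0.05, -0.09 and -0.22 at 5 weeks. Hyal2, a hyaluronidase, lay 0.16 higher with no overlap between the ages. Plau, the urokinase plasminogen activator, had -0.38, -0.46 and -0.23 at 6 weeks against 0.19, 0.09 and -0.11 at 5 weeks. In this list 4 genes lay wholly above (11.2% of all genes) and 1 wholly below (9.01%), none past the test.

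Of the 47 lists, that of skeletal muscle had the median farthest from 0. All 28 measured lay below 0, 27 of them by at least 2-fold (1.39% of all genes), with a median of -3.41. The mean of the list was -3.44, -5.08 and -4.89 in the 6-week arrays, against 0.48, 0.57 and -4.77 in the 5-week arrays. All 6-week arrays and array 3 of 5 weeks were low, and arrays 1 and 2 of 5 weeks were high. Against array 3 the median was 0.26, with 24 of 28 genes above 0, and against arrays 1 and 2 it was -5.24. None of the 28 passed the test.

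Actn3, an actinin of fast fibres, had -5.20, -6.64 and -6.03 at 6 weeks, against 0.57, 0.61 and -5.42 at 5 weeks. The value of -6.64 is the lowest that the table holds, and values at that bound have no order. Ampd1, the muscle AMP deaminase, had -4.11, -4.70 and -4.39 at 6 weeks, against 0.69, 0.69 and -4.34 at 5 weeks. In 2 of the 28 genes the ages did not overlap, Mylk2 and Des, a share no higher than the 9.01% of all genes. Mylk2, a myosin light chain kinase, had -0.34, -0.42 and -0.50 at 6 weeks, against 0.42, 0.51 and -0.16 at 5 weeks (unadjusted p = 0.0345, limma). Des encodes desmin, the intermediate filament of muscle, and had -1.20, -1.39 and -1.32 at 6 weeks, against 0.11, 0.52 and -1.11 at 5 weeks. Its array 3 value lay 0.20 from the 6-week mean, and its 2 probe sets differed by -1.91 and -0.37 between the ages. Slow fibre genes had the same array pattern, with a list mean of -0.59, -0.91 and -0.90 at 6 weeks against 1.82, 1.83 and -0.88 at 5 weeks. Its median was -1.40, and 0.04 against array 3.

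The promoter of Des is shown because desmin is the muscle gene of the list that was both apart between the ages and held in the promoter table. It lies at chr1:75360042-75360341 on the plus strand (RefSeq, GRCm38.p6), from 250 bases before to 50 after the gene's start. Capitals mark CAGCTG, a form of the E-box that myogenic factors bind, which reads the same on both strands and starts at position -36 from the gene's start.
Des: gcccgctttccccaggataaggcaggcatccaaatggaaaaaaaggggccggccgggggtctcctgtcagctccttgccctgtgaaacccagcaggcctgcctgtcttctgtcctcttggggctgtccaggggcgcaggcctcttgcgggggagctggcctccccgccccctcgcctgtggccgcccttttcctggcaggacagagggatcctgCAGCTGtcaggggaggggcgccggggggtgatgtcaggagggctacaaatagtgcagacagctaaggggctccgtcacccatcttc
CAGCTG was held by 12 of the 20 muscle genes with a listed promoter (60%), and by 18.3% of the 27025 genes in the promoter table. The letters CTA and TAG with any 4 bases between them, a motif of MEF2 factors searched on both strands, was held by 2 of the 20 (10%) and by 4.23% of all genes. A match is a run of letters and says nothing of binding.

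Hox genes, which mark position along the body axis, were listed after the data had been seen. Hoxc10 followed the muscle pattern inversely, with 3.83, 3.06 and 3.16 at 6 weeks against -0.23, -0.05 and 3.73 at 5 weeks. In RonTK+/+ arrays it was 3.65 and 4.03 in 6-week arrays 2 and 3 and 3.19 in 5-week array 2, the arrays in which muscle genes were low. It was -0.18 in 6-week array 1, and -0.45 and 0.01 in 5-week arrays 1 and 3. Hoxa9 had 0.78, 0.38 and 0.57 at 6 weeks against -0.18, -0.09 and 0.57 at 5 weeks, and Hoxa10 had 0.74, 0.53 and 0.65 against -0.12, 0.00 and 0.58. Over all 33 measured Hox genes the median was -0.02, so only some members had this pattern. Because gland position is not given for the arrays, its part in these results was not tested.

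**Figure D2:**
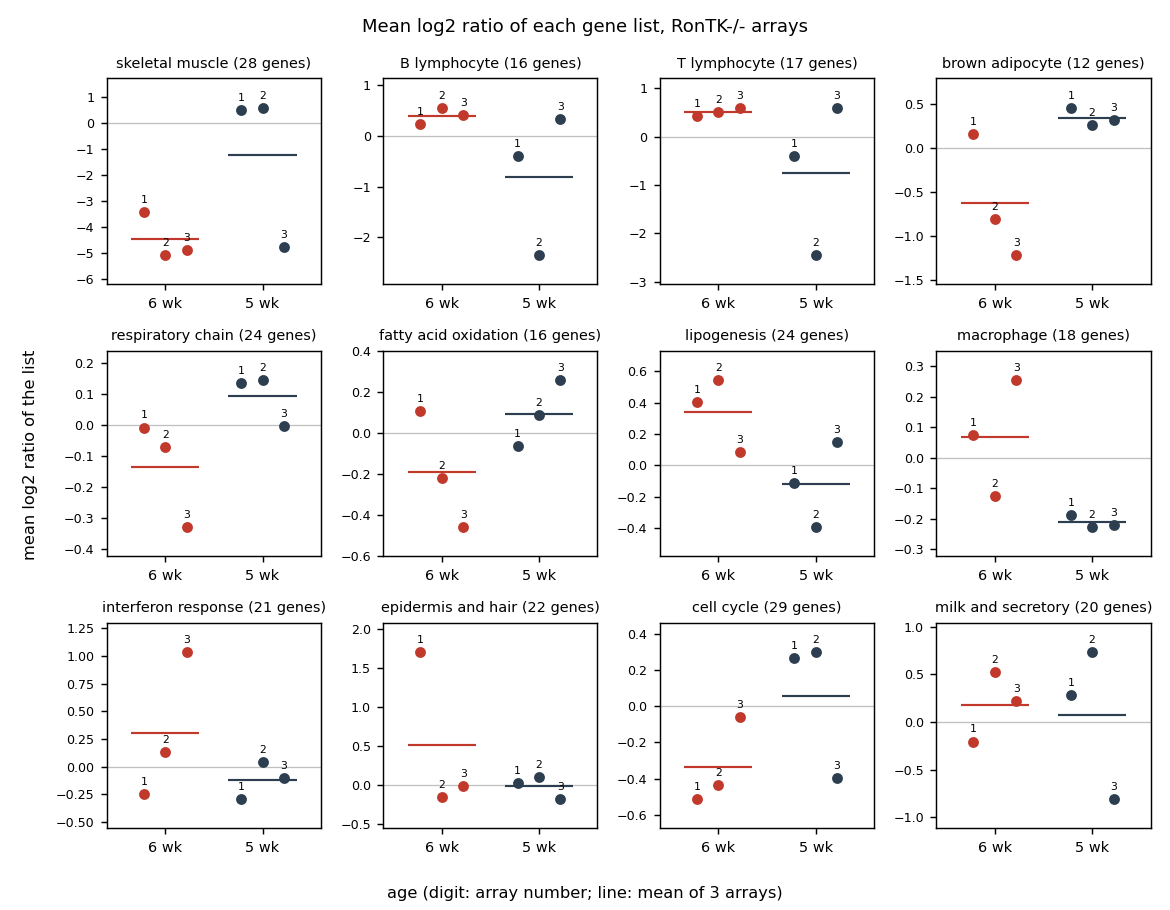
Mean log2 ratio of 12 gene lists in each RonTK-/- array, 6 weeks in red on the left and 5 weeks in dark blue on the right of each panel; digits are array numbers, lines are means of 3 arrays, and each panel has its own y axis. In the muscle panel array 3 of 5 weeks lies at -4.77 among the 6-week arrays, and in the lymphocyte panels array 2 of 5 weeks lies lowest, at -2.35 and -2.44.

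Lymphocyte genes were higher on average at 6 weeks, and array 2 of 5 weeks was the lowest in each such list. The mean of 16 B lymphocyte genes was 0.24, 0.56 and 0.41 at 6 weeks, against -0.39, -2.35 and 0.33 at 5 weeks, and that of 17 T lymphocyte genes was 0.43, 0.50 and 0.59 against -0.39, -2.44 and 0.59. All 16 and all 17 lay above 0, with medians of 1.06 and 1.25. Against array 3 alone the medians were 0.04 and -0.05.

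Blnk, an adaptor of B cell receptor signalling, had 0.23, 0.53 and 0.42 at 6 weeks, against -0.41, -1.53 and 0.00 at 5 weeks (unadjusted p = 0.0589, limma). Cxcr5, the receptor that guides B cells to follicles, had 0.32, 0.88 and 0.60, against -0.21, -1.12 and 0.28. Those 2 genes were among 3 of the 16 whose ages did not overlap, beside 11.2% of all genes, so the count is no result about the list. Cd8a, of cytotoxic T cells, had 0.41, 0.48 and 0.69 at 6 weeks, against -0.35, -1.65 and 0.42 at 5 weeks.

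The MHC class II list followed the same order, with all 11 genes above 0 and a median of 0.73, of which 0.04 was left against array 3. Cd83, of mature dendritic and B cells, had 0.39, 0.89 and 0.33 at 6 weeks, against -0.42, -2.54 and 0.47 at 5 weeks. Cxcl13, the stromal chemokine that attracts B cells, had 0.16, 0.61 and 0.57, against -1.07, -2.36 and 0.28. In the list of lymph node stroma and high endothelial venules, 9 of 9 genes lay above 0, with a median of 0.64, and 0.11 against array 3. None of these lymphoid genes passed the test, and the lymph node content of an array was not recorded.

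Genes of brown fat and of fuel oxidation averaged lower at 6 weeks, also against array 3 of 5 weeks, but not in every 6-week array. Of 12 measured brown adipocyte genes, 10 lay below 0, 5 of them by at least 2-fold, beside 1.39% of all genes. In 6 genes there was no overlap between the ages, set against 9.01% of all genes. The list median was -0.93, and all 12 genes lay below array 3, with a median of -0.83, and -1.07 against arrays 1 and 2. The list mean was 0.16, -0.81 and -1.22 in the 6-week arrays, against 0.46, 0.26 and 0.32 at 5 weeks. Array 1 of 6 weeks was thus the nearest to the younger glands.

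Fabp3, a fatty acid carrier of oxidative tissue, had -0.47, -2.02 and -1.76 at 6 weeks, against 0.58, 0.80 and 0.23 at 5 weeks. The difference was -1.95 ± 0.55 (SE), a 3.87-fold lower mean with an unadjusted p of 0.00302 and an adjusted p of 0.528 (limma). Its 2 probe sets disagreed, at -3.73 and -0.17, so the value rests on 1 of them. Ppargc1a, a coactivator of mitochondrial genes, had -0.91, -1.57 and -2.16 at 6 weeks, against 0.24, 0.03 and -0.14 at 5 weeks, and its 5 probe sets ran from -1.77 to -1.35. Both genes are also active in muscle. Against array 3 the differences were -1.64 for Fabp3 and -1.40 for Ppargc1a.

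Slc27a2, a fatty acid transporter and acyl-CoA synthetase, had 0.69, -1.55 and -0.59 at 6 weeks, against 0.70, 0.83 and 1.77 at 5 weeks. Cox8b, a cytochrome oxidase subunit of brown fat and muscle, had -0.10, -0.95 and -1.23 at 6 weeks, against 0.31, 0.33 and 0.06 at 5 weeks. Ucp1, the uncoupling protein of brown fat, had 0.49, -0.90 and -1.76 at 6 weeks, against 0.99, 0.26 and 0.63 at 5 weeks, so its ages overlapped.

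In the respiratory chain list all 24 measured subunits lay below 0, 13 with no overlap (9.01% of all genes), and all 24 also lay below array 3. The differences were small, with a median of -0.25, and -0.11 against array 3. Cox6c had -0.12, -0.19 and -0.36 at 6 weeks, against 0.15, 0.12 and -0.03 at 5 weeks, and Cox5a had -0.04, -0.06 and -0.23 against 0.16, 0.12 and 0.00. Ndufb5, of complex I, lay 0.37 ± 0.23 lower (SE). None of the 24 had an unadjusted p under 0.05.

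Of 16 fatty acid oxidation genes, 14 lay below 0 and 15 below array 3, and 3 had an unadjusted p under 0.05, all lower (4.49% of all genes). The list mean was 0.11, -0.22 and -0.46 at 6 weeks, against -0.07, 0.08 and 0.26 at 5 weeks, so array 1 of 6 weeks lay above arrays 1 and 2 of 5 weeks. Etfdh, which passes electrons from fatty acid oxidation to the respiratory chain, had 0.02, -0.20 and -0.42 at 6 weeks, against 0.17, 0.14 and 0.40 at 5 weeks. Acadl, the long-chain acyl-CoA dehydrogenase, had 0.01, -0.27 and -0.38, against 0.04, 0.11 and 0.16. Ppara, the nuclear receptor of this programme, averaged -0.51 at 6 weeks and 0.09 at 5 weeks.

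In RonTK-/- glands the skeletal muscle mean was -3.44, -5.08 and -4.89 at 6 weeks, against 0.48, 0.57 and -4.77 at 5 weeks. The brown adipocyte mean of the same arrays was 0.16, -0.81 and -1.22, against 0.46, 0.26 and 0.32. In RonTK+/+ glands the brown adipocyte mean was 0.36, -0.65 and -0.06 at 6 weeks, against 0.15, -1.18 and 0.50 at 5 weeks, where the muscle mean was 0.61, -4.87 and -3.56 against 0.01, -5.05 and 0.28. With the skeletal muscle mean as a covariate the brown adipocyte median was -0.23 and the respiratory chain median -0.0017. Fabp3 kept a difference of -1.18 (unadjusted p = 0.00356) and Ppargc1a one of -0.70 (unadjusted p = 0.153) with the muscle and B lymphocyte means both in the limma fit. The part of muscle content in these results was not tested.

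Lipid synthesis genes ran the other way. Of 24 measured lipogenic genes, 22 lay above 0 and 8 had an unadjusted p under 0.05, all higher, beside 4.28% of all genes. In 8 genes the ages did not overlap (11.2% of all genes). The median was 0.35, and the list mean was 0.40, 0.55 and 0.08 at 6 weeks, against -0.11, -0.39 and 0.15 at 5 weeks. Array 3 was thus above 1 of the 6-week arrays in the mean, and against it the median was 0.12, with 19 of 24 genes above 0, and 0.50 against arrays 1 and 2.

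Acaca, acetyl-CoA carboxylase, had 0.67, 0.94 and 0.30 at 6 weeks, against -0.43, -0.89 and -0.11 at 5 weeks. Its difference was 1.12 ± 0.38 (SE; 2.17-fold; unadjusted p = 0.0115, adjusted p = 0.528, limma). Acly, ATP citrate lyase, had 0.36, 0.50 and 0.15 at 6 weeks, against -0.23, -0.90 and -0.07 at 5 weeks, with differences from 0.15 to 1.90 among its 6 probe sets. Slc25a1, the citrate carrier of the mitochondrion, had 1.02, 1.23 and 0.29, against -0.52, -0.97 and 0.21. Me1, malic enzyme, had 1.18, 1.26 and 0.59, against -0.30, -0.69 and 0.29. In these 4 genes every 6-week array lay above every 5-week array, by 0.74 to 1.27 on average. With the muscle and B lymphocyte means in the fit the differences of Acaca and Me1 were 1.33 and 1.44.

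Sterol synthesis genes had the same direction, 14 of 15 above 0 with a median of 0.34 and 0.11 against array 3. Sqle, squalene epoxidase, had 0.31, 0.40 and 0.06 at 6 weeks, against -0.03, -0.30 and -0.30 at 5 weeks. Lss, lanosterol synthase, averaged 0.30 at 6 weeks and -0.25 at 5 weeks. Of 13 white adipocyte genes 12 lay above 0, but only 4 lay above array 3. Lep, which encodes leptin, had 0.53, 0.48 and 0.82 at 6 weeks, against 0.26, -1.69 and 0.29 at 5 weeks, and Pparg had 0.59, 0.38 and 0.45 against -0.11, -0.21 and 0.42. Retn, encoding resistin, lay 0.52 higher on average and 0.05 above array 3.

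**Figure D3:**
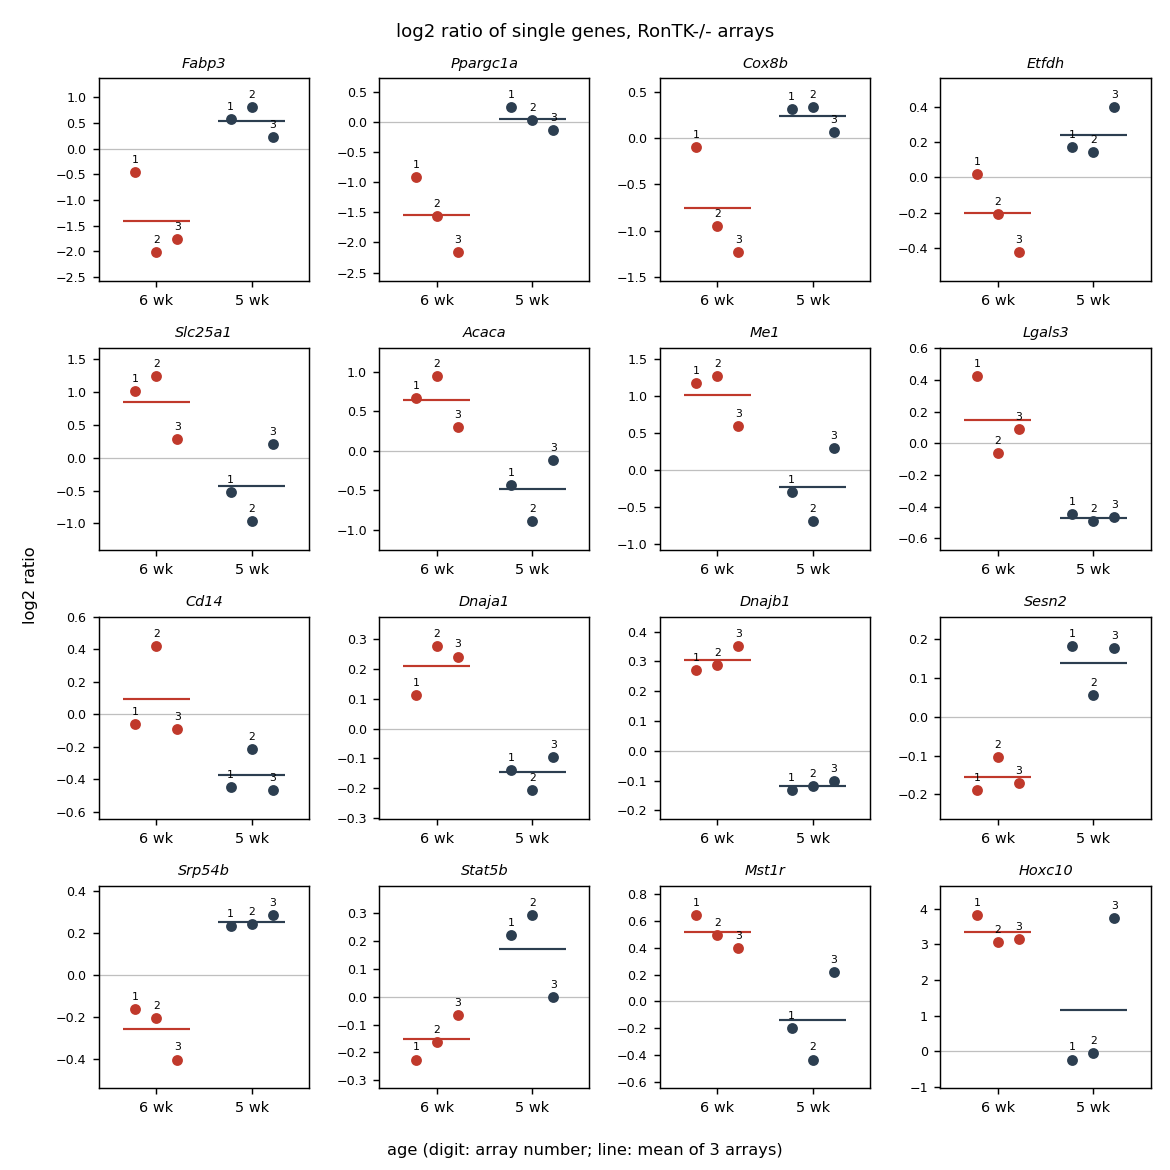
log2 ratio of 16 genes in each RonTK-/- array, 6 weeks in red on the left and 5 weeks in dark blue on the right; digits are array numbers, lines are means of 3 arrays, and each panel has its own y axis. The genes were picked for display from those named in the text, so they do not stand for all genes. The ages do not overlap in any panel but that of Hoxc10, where array 3 of 5 weeks lies at 3.73 among the 6-week arrays. Over all genes the ages do not overlap in 20.2%, and 0 genes passed the test.

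Macrophage genes averaged slightly higher at 6 weeks. All 18 lay above 0, with a median of 0.25, and all 18 lay above array 3, with a median of 0.29. Against arrays 1 and 2, 13 lay above and 5 below, with a median of 0.19. Only 2 had an unadjusted p under 0.05 (4.28% of all genes), Lgals3 and Cd14. Lgals3, which encodes galectin-3, had 0.42, -0.06 and 0.09 at 6 weeks, against -0.45, -0.49 and -0.47 at 5 weeks. Its difference of 0.62 ± 0.14 (SE) had an unadjusted p of 0.000515 and an adjusted p of 0.528 (limma). Cd14, the lipopolysaccharide co-receptor, had -0.06, 0.42 and -0.09 at 6 weeks, against -0.45, -0.21 and -0.47 at 5 weeks. Cd68, a lysosomal protein, had 0.03, -0.30 and 0.28, against -0.48, -0.43 and -0.41. With the muscle and B lymphocyte means in the fit the list median was 0.06, with 14 genes above 0 and 4 below, and the Lgals3 difference was 0.70.

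Interferon response genes were highest in array 3 of 6 weeks. All 21 measured lay above 0 with a median of 0.37, and 6 had an unadjusted p under 0.05, all higher (4.28% of all genes). The median was 0.41 against array 3 and 0.48 against arrays 1 and 2, but 0.04 without array 3 of 6 weeks. The list mean was -0.25, 0.13 and 1.03 at 6 weeks, against -0.29, 0.04 and -0.11 at 5 weeks. In array 3 of 6 weeks all 21 lay above every 5-week array, in array 2 12 did and in array 1 only 3.

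Stat2, of the transcription factor complex that type I interferon activates, had -0.08, 0.35 and 0.70 at 6 weeks, against -0.27, -0.15 and -0.12 at 5 weeks (unadjusted p = 0.00508, limma). Irf9, its DNA-binding partner, had -0.09, 0.27 and 0.69, against -0.29, -0.30 and -0.12. Mx1, an antiviral GTPase, had 0.15, 1.10 and 2.22 at 6 weeks, against -0.17, -0.14 and 0.37 at 5 weeks. Ddx58, the sensor of viral RNA also known as RIG-I, had -0.05, 0.14 and 0.57, against -0.21, -0.31 and 0.11.

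GAAA repeated after any 2 bases is the core of the interferon-stimulated response element and was searched on both strands. The promoters of Stat2 and Ddx58 are shown because both hold it. They lie at chr10:128270248-128270547 on the plus strand and chr4:40239776-40240075 on the minus strand (RefSeq, GRCm38.p6, 250 bases before to 50 after the gene's start, in the direction of the gene). Capitals mark the match, which in both is the reverse complement.
Stat2: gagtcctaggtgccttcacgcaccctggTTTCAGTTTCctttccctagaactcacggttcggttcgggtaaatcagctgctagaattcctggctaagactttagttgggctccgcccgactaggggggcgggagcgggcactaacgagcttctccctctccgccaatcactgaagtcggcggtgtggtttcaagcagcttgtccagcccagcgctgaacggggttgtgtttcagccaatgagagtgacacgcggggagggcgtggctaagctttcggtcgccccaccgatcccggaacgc
Ddx58: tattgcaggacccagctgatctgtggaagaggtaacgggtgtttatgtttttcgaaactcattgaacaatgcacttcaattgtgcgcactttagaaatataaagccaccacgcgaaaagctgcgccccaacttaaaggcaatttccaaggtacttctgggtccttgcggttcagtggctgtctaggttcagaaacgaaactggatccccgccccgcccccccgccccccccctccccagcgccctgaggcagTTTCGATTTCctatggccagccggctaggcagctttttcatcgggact
The match starts at position -222 in Stat2 and at position 3 in Ddx58, counted from the gene's start. Of 14 interferon genes with a listed promoter, 9 held the motif (64.3%), beside 3.99% of the 27025 genes. The listed promoter of Irf9 held no match, and that of Mx1 was not examined singly.

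Chemokine genes were high in arrays 2 and 3 of 6 weeks. Cxcl10, an interferon-induced chemokine for T cells, had 0.04, 1.78 and 1.59 at 6 weeks, against 0.50, -0.70 and 0.20 at 5 weeks. Ccl7, which attracts monocytes, had 0.18, 1.45 and 1.02, against 0.21, -0.03 and -0.22. In both genes array 1 of 6 weeks lay within the 5-week range. Of the 19 measured genes of the chemokine and NF-kB list, 18 lay above 0, with a median of 0.57 and 0.08 against array 3.

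A single array also carried the epidermal genes. The mean of 22 epidermis and hair genes was 1.70 in array 1 of 6 weeks and -0.15 and -0.01 in the other 6-week arrays, against 0.03, 0.10 and -0.18 at 5 weeks. The median was 0.36, and -0.04 without array 1 of 6 weeks. Krt1, a keratin of the upper epidermis, had 3.99, 0.00 and 0.04 at 6 weeks, against 0.07, 0.14 and -0.14 at 5 weeks. Flg, which encodes filaggrin, had 3.76, -0.04 and 0.00, against -0.02, 0.07 and -0.05. Krt2 had 1.43 in array 1, and Dsc1, a desmosomal cadherin, had 2.18. Of 26 genes at least 2-fold higher at 6 weeks against both the 5-week mean and array 3, 22 were more than 2-fold higher in array 1 than in the other 6-week arrays. In RonTK+/+ glands the list mean was high in array 1 of 6 weeks (0.94) and array 3 of 5 weeks (1.34). The part of skin in these arrays was not tested.

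Only 4 of those 26 genes were not of this kind, and 7 genes were at least 2-fold lower against both. They were named after their values were seen. The higher were Ccl12, Fcgbp, Ifit1bl1 and Mogat2. Ccl12 had 0.22, 2.16 and 1.55 at 6 weeks, against 0.41, -0.34 and -0.11 at 5 weeks, so its ages overlapped. Ifit1bl1 had 0.27, 0.73 and 2.46, against -0.35, -1.21 and 0.14, and was highest in array 3 of 6 weeks. Mogat2, an acyltransferase of triglyceride synthesis, had 1.01, 1.76 and 0.29 at 6 weeks, against -0.44, -0.60 and 0.00 at 5 weeks. Fcgbp had 0.54, 0.54 and -0.27, against -0.61, -0.85 and -0.86. The lower were Fabp3, Ppargc1a, Slc27a2, Ucp1, Cox7a1, Adtrp and Cpn2, 5 of them on the brown adipocyte list. The ages overlapped in Ucp1 and in Cpn2, which had 0.09, 0.13 and -1.16 at 6 weeks, against 1.05, -0.04 and 1.06 at 5 weeks. Cox7a1, a cytochrome oxidase subunit of muscle and brown fat, had -0.70, -1.73 and -2.75 at 6 weeks, against 0.48, 0.47 and -0.48 at 5 weeks. Adtrp, an endothelial regulator of tissue factor pathway inhibitor that also hydrolyses fatty acid esters, had -0.14, -1.09 and -0.80, against -0.05, 0.47 and 1.26.

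Epithelial lists showed no direction common to all 5-week arrays. Of 18 pan-luminal genes 8 lay above 0 and 10 below, with a median of -0.03, but 17 lay above array 3, with a median of 0.38. Of 16 basal genes 15 lay above array 3, and of 20 milk genes 18 did, with medians of 0.37 and 0.63. Array 3 of 5 weeks was thus the lowest of the 5-week arrays in epithelial transcripts. With the muscle and B lymphocyte means in the fit the medians were 0.30 for pan-luminal, 0.30 for basal and 0.42 for milk genes. In that fit 16 of 18, 14 of 16 and 16 of 20 genes lay above 0. Mylk, the myosin light chain kinase of contractile myoepithelium, had 0.20, 0.18 and 0.07 at 6 weeks, against -0.14, -0.13 and -0.03 at 5 weeks (unadjusted p = 0.0112, limma). Mfge8, a milk fat globule protein, had 0.21, 0.25 and 0.25, against -0.08, -0.33 and 0.08. Elf3, an epithelial transcription factor, lay 0.23 lower, with no overlap. Wholly above lay 1 of 18 pan-luminal, 1 of 16 basal and 2 of 20 milk genes, no more than the 11.2% of all genes. Wholly below lay 1 pan-luminal gene and 0 of the other 2 lists, beside 9.01% of all genes.

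Tbx3 of hormone-sensing luminal cells averaged -0.26 at 6 weeks and 0.04 at 5 weeks, with differences from -0.59 to 0.02 among its 5 probe sets. Esr1, the oestrogen receptor, had -0.20, -0.28 and -0.25, against -0.24, 0.02 and 0.15. Of 11 hormone-sensing genes 4 lay above 0 and 7 below, with a median of -0.15, and the largest rise was 0.60. Against array 3 alone 7 lay above 0 and 4 below, with a median of 0.315. With the muscle and B lymphocyte means in the fit the median was 0.26. In 1 gene the 6-week arrays lay wholly above (11.2% of all genes), and in 0 wholly below (9.01%).

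Cell cycle genes averaged lower at 6 weeks, but not against array 3. Of 29 measured, 27 lay below 0, with a median of -0.42, and 20 lay above array 3, with a median of 0.05. With the muscle and B lymphocyte means in the fit all 29 lay below 0, with a median of -0.43. The list mean was -0.51, -0.44 and -0.06 at 6 weeks, against 0.27, 0.30 and -0.40 at 5 weeks. Cenpe, a motor of the kinetochore, had -0.96, -0.70 and -0.24 at 6 weeks, against 0.43, 0.73 and -0.38 at 5 weeks. Aurka, a mitotic kinase, had -0.35, -0.26 and -0.08, against 0.37, 0.54 and -0.32. None of the 29 had an unadjusted p under 0.05.

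Among growth factor pathways the number of members past an unadjusted p under 0.05 stayed at 3 or fewer of each list. The share over all genes was 8.76%. The number was 3 of 17 in the growth hormone and IGF list and 3 of 23 in the TGF-beta and BMP list. It was 2 of 16 for Notch, 1 of 14 for the EGF family, 1 of 16 for FGF, 0 of 24 for Wnt and 0 of 13 for Hedgehog. Stat5b, which carries growth hormone and prolactin signals, had -0.23, -0.16 and -0.07 at 6 weeks, against 0.22, 0.30 and 0.00 at 5 weeks (unadjusted p = 0.00277, limma). In the same growth hormone and IGF list, Irs2, an adaptor of insulin receptors, averaged -0.30 at 6 weeks and 0.07 at 5 weeks. Igfbp3, an IGF-binding protein, averaged 0.28 at 6 weeks and -0.27 at 5 weeks. Over those 17 genes the median was 0.00.

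Spry4, a feedback inhibitor of FGF receptor signalling, had -0.22, -0.02 and -0.14 at 6 weeks, against 0.31, 0.22 and -0.01 at 5 weeks. The FGF list as a whole had a median of -0.03 over 16 genes. In the EGF family, Egf had -2.11, -2.20 and -2.18 at 6 weeks, against 0.65, 0.92 and -2.42 at 5 weeks, the array pattern of the muscle genes. Nrg4, a ligand of ErbB4 made by fat, had 1.05, 0.68 and 0.33, against -0.26, -0.50 and 0.65. Wnt2 averaged -0.56 at 6 weeks and 0.13 at 5 weeks, and lay 0.17 above array 3. Tgfb1 had 0.26, 0.17 and 0.16 at 6 weeks, against -0.14, -0.63 and 0.13 at 5 weeks.

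The immediate early gene Dusp1, a MAP kinase phosphatase, had -0.42, -0.40 and -0.84 at 6 weeks, against 0.44, 0.42 and -0.25 at 5 weeks. Nr4a1, an orphan nuclear receptor, had -0.77, -0.85 and -1.03, against 0.84, 1.18 and -0.89, so array 3 lay among the 6-week arrays. Most of the list did not share this direction. Of 23 immediate early genes 14 lay above 0 and 9 below, with a median of 0.09, and 20 lay above array 3. In 3 genes the 6-week arrays lay wholly above (11.2% of all genes), and in 1 wholly below (9.01%). Fas, the death receptor, had 0.31, 0.38 and 0.41 at 6 weeks, against -0.22, -0.27 and 0.12 at 5 weeks, and 6 of 15 apoptosis regulators lay wholly above (11.2% of all genes). The median of those 15 was 0.20, and 0.06 against array 3. With the muscle and B lymphocyte means in the fit it was 0.03.

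In 3679 genes (20.2%) the ages did not overlap, so that array 3 lay on the side of the other 5-week arrays. Those given here were picked for a small p over all genes or within the heat shock list, and none passed the test. Srp54b, a signal recognition particle subunit with near-identical copies in the mouse genome, had the smallest p of the comparison. It had -0.16, -0.20 and -0.40 at 6 weeks, against 0.23, 0.24 and 0.29 at 5 weeks (unadjusted p = 1.45e-05, adjusted p = 0.263, limma). Dnaja1, a co-chaperone of Hsp70, had 0.11, 0.28 and 0.24 at 6 weeks, against -0.14, -0.21 and -0.10 at 5 weeks (adjusted p = 0.475). Dnajb1, another, had 0.27, 0.29 and 0.35, against -0.13, -0.12 and -0.10. Hspe1, the mitochondrial co-chaperonin, ran the other way, with -0.08, -0.09 and -0.08 against 0.04, 0.18 and 0.09. Over the 12 heat shock genes 7 lay above 0 and 10 above array 3.

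With the muscle and B lymphocyte means as covariates limma called 0 genes, with 1059 at an unadjusted p under 0.05 and a lowest adjusted p of 0.35. The 10 named genes with the smallest p in that fit, none past the test, were Srp54b, Hspa1b, Tent5a, Oxct1, Car9, Sesn2, Car14, Ankrd9, Hspa1a and Niban2. Oxct1, which lets tissues burn ketone bodies, had -0.14, -0.26 and -0.15 at 6 weeks, against 0.34, 0.48 and 0.29 at 5 weeks. Sesn2, a stress-induced regulator of mTORC1, had -0.19, -0.10 and -0.17, against 0.18, 0.06 and 0.18. Tent5a, a poly(A) polymerase, had 0.50, 0.78 and 0.55 at 6 weeks, against -0.62, -0.14 and -0.08 at 5 weeks.

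Car9 and Car14, carbonic anhydrases, had adjusted differences of -0.34 and -0.86 in that fit, and Ankrd9 one of -0.60. Hspa1a and Hspa1b, nearly identical genes of inducible Hsp70 whose probe sets may share signal, had adjusted differences of 1.42 and 1.23. In the arrays themselves their ages overlapped: Hspa1b had 0.47, -0.19 and 0.63 at 6 weeks, against -0.01, 0.31 and -1.19 at 5 weeks.

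The same difference between ages in RonTK+/+ glands shares no array with the mutant comparison. The test of the genotype by age interaction called 0 of 18193 genes (0%), with 1316 at an unadjusted p under 0.05 (7.23%) and a lowest adjusted p of 0.682. Lipogenic genes lay above 0 in both genotypes, with a median of 0.35 in RonTK-/- and 0.58 in RonTK+/+ glands, where all 24 were above 0. Acaca differed by 1.12 in RonTK-/- and 1.49 in RonTK+/+ glands, and Me1 by 1.25 and 1.89. Sterol genes had medians of 0.34 and 0.51, and cell cycle genes of -0.42 and -0.25.

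Other lists had medians of opposite sign. The interferon list had 0.37 in RonTK-/- and -0.43 in RonTK+/+ glands, where all 21 genes lay below 0, and the macrophage list had 0.25 and -0.35, with 17 of 18 below 0 in RonTK+/+ glands. The RonTK-/- interferon median ran from 0.0383, without array 3 of 6 weeks, to 0.6518, without array 1 of 6 weeks. The respiratory chain list had -0.25 and 0.08, and the brown adipocyte list -0.93 and 0.04. Muscle genes were low in RonTK+/+ array 2 of 5 weeks and in arrays 2 and 3 of 6 weeks, so muscle content was unequal in that comparison too. Their list median was -3.41 in RonTK-/- and -1.04 in RonTK+/+ glands.

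The 5 named genes with the smallest interaction p, none past the test, were Muc5ac, Zfp12, Sertad1, Camk1g and Lgals3. Lgals3 differed by 0.62 in RonTK-/- and -0.34 in RonTK+/+ glands, an interaction of 0.96 ± 0.20 (SE; unadjusted p = 0.00023, adjusted p = 0.682, limma). Sertad1, a partner of PHD-bromodomain and E2F proteins, differed by 0.30 and -0.32, and Muc5ac, a secreted mucin, by -0.28 and 0.17. Zfp12 differed by 0.29 and -0.15, and Camk1g, a calcium-dependent kinase, by -0.24 and 0.20.

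**Figure D4:**
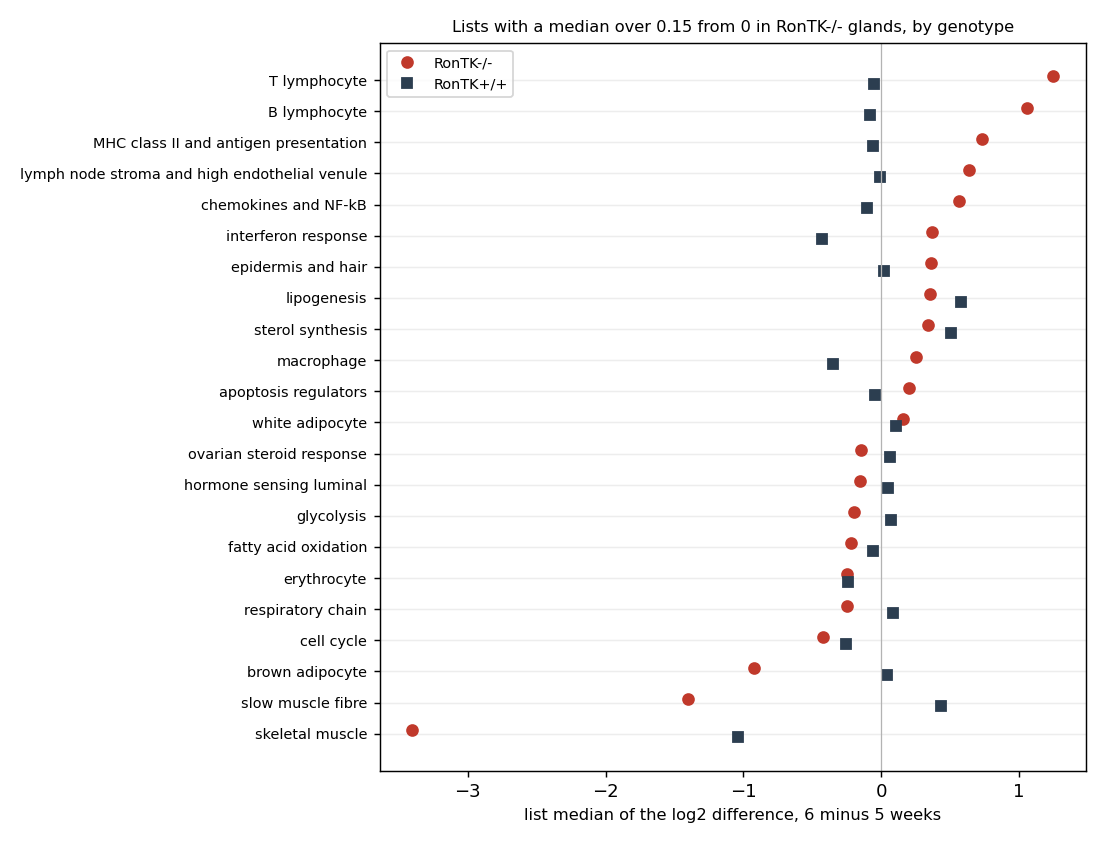
Median over each list of the log2 difference between 6 and 5 weeks, in RonTK-/- glands (red circles) and RonTK+/+ glands (dark blue squares), for the 22 lists whose RonTK-/- median lay more than 0.15 from 0. Lipogenesis and sterol synthesis lie right of 0 in both genotypes, and interferon response and macrophage lists lie on opposite sides, with no interaction called for any gene.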

How the data were processed

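The deposited columns hold linear ratios. Their unit was read from the values, since every array has a median of 1 and, at a tolerance of 1e-04, the RonTK+/+ median is 1 in 87.4% of all 45101 probe sets. How the authors computed them is not stated here, so signal over background is unknown. Extraction, amplification and labelling follow the labels' protocols. A single symbol was listed for 34945 probe sets, several for 932 and none for 9160, and 34741 matched RefSeq (GRCm38.p6). A gene's value is the mean log2 ratio of its single-symbol probe sets, with no pseudocount.

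In R 4.3.3, limma 3.58.1 fitted 6 group means to 18 arrays (lmFit and eBayes). P-values are two-sided, with Benjamini-Hochberg adjustment over 18193 genes. The code was tested on simulated data. Figures used Python 3.11.15 with matplotlib 3.10.9. The comparison and the 47 gene lists were chosen with earlier results of these data known. By rule the text names Mst1r and Mst1, the 10 genes with the smallest p beside the covariates, the 5 with the smallest interaction p, and from each list up to 4 genes with the smallest p, with more by role. The Hox genes and those 2-fold apart from both sets of 5-week arrays were chosen after their values were seen. Alternatives covered normalization, array weights, covariates, a replicate block, probe set summaries, thresholds and left-out arrays.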

Additional observations from a re-analysis of the deposited data

How the results depend on the processing

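The number of arrays limits the precision, and signal over background is unknown. For the difference between 6 and 5 weeks limma called 0 genes under every alternative run except array weights. The default arrayWeights method, which did not converge, called 7611 genes, 3729 higher and 3882 lower, and 1665 for the interaction. The gene-by-gene method, added after seeing the data, called 3166 genes, 1401 higher and 1765 lower, and 0 for the interaction. Leaving out 1 array called 0 genes each time, with 653 (without array 2 of 5 weeks) to 3445 genes (without array 3 of 5 weeks) at an unadjusted p under 0.05. Same-numbered arrays of the 2 ages had correlations of 0.15, -0.26 and 0.001 in their deviations from the group means. Differently numbered arrays reached 0.27. With 3 arrays a group these values cannot tell whether the numbers pair the arrays. With the replicate block the count was 0, with 1654 genes at an unadjusted p under 0.05.

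Some named genes changed sign. Against array 3 alone the difference was -0.38 for Hoxc10, -0.0022 for Cd6, -0.0108 for H2-Ab1, 0.0861 for Aurka, 0.0254 for Cdc20, 0.26 for Egf, 0.17 for Wnt2 and 0.0081 for Nr4a1. With the skeletal muscle covariate it was -0.19 for Cxcl13 and 0.007 for Ucp1, and with both covariates -0.0581 for Cxcl13 and 0.0238 for Ucp1. Over the fits without 1 array it ran from -0.0226 to 1.877 for Flg and from -0.0223 to 0.6914 for Krt2, the lowest without array 1 of 6 weeks. The causes were not tested.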
